A study of Mus musculus with 8 samples.

Results

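The genes described here encode the proteins of the cytosolic ribosome, and were followed in RNA-seq of mouse pro-B cells, the bone marrow precursors in which immunoglobulin heavy chain genes are being rearranged. They were taken by name, as protein-coding genes whose symbols begin with Rpl or Rps and a number, together with Rplp0, Rplp1, Rplp2 and Rpsa, leaving out the Rps6k kinases and everything annotated as a pseudogene. The rule found 86 of the 55487 genes in the table. Of these, 77 encode standard ribosomal proteins, 31 of the small subunit, 43 of the large subunit and 3 of its stalk. Another 8 are paralogs of such genes. The last, Rps19bp1, matched by its symbol, but its product is a protein that binds RPS19 and the deacetylase SIRT1 and is not part of the ribosome. Fau, which encodes a ribosomal protein fused to a ubiquitin-like protein, and Rack1 fall outside the naming rule and are given with the comparison lists.

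The libraries fell into 2 groups of 4, labelled CD25 knockout and wild type. CD25, encoded by Il2ra, is the chain that raises the affinity of the receptor for interleukin-2, and the comparison asks what its absence changes at this stage. Strain, age and the make of the knockout allele are not given in the sources used here, and neither is whether replicates are separate animals. The p-values therefore reflect the spread among these particular libraries, part of which may be technical. Libraries held between 43974037 and 57988772 counts. Il2ra had 145, 168, 244 and 168 CPM in the libraries labelled knockout and 200.2, 216, 216 and 140.4 CPM in wild type, where CPM are gene counts relative to the library total after TMM scaling. Its log2 fold change was -0.09 ± 0.19 (SE, adjusted p = 0.849 after Benjamini-Hochberg, edgeR's quasi-likelihood test). Without wild type 2 it was 0.01. The targeted gene therefore does not check the labels, and every direction below rests on them. All 13 pro-B and B lineage markers examined had counts, summing to 9700 ± 724 CPM in the libraries labelled knockout and 9430 ± 606 CPM in wild type (SD, n = 4 each).

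The ribosome is made of a small subunit, which reads the messenger RNA, and a large subunit, which joins amino acids and sends the chain out through a tunnel. Its proteins are needed in nearly equal amounts, and surplus ones are degraded. Most of their messenger RNAs begin with a C followed by a run of pyrimidines, the 5′ terminal oligopyrimidine or TOP motif, through which the kinase mTOR and the protein LARP1 govern their translation. Transcript counts such as these show the level of the messenger RNA and not its translation. In mice and humans, partial loss of single ribosomal proteins stabilises p53 and hits blood cell precursors hard, as in Diamond-Blackfan anaemia.

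The stretch around the annotated transcription start is shown for 12 of the genes on which the results turn. A TOP motif would begin at this start. Each line gives 30 bases before the start and 20 from it on, read 5′ to 3′ on the gene's own strand from RefSeq on GRCm38.p6. Capitals mark the first run of at least 6 C or T letters that begins with C and lies within 20 bases of the start. Both sides of the start were searched, so a marked run need not be a TOP motif.
Rps18: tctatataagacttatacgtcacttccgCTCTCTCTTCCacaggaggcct
Rps26: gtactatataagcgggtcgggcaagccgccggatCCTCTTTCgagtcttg
Rps12: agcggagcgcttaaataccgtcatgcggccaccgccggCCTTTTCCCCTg
Rps16: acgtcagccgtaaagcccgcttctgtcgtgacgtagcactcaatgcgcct
Rpl15: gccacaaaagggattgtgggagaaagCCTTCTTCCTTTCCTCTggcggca
Rpl14: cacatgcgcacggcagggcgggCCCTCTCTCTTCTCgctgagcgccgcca
Rpl39: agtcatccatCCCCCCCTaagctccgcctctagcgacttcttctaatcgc
Rpl36a: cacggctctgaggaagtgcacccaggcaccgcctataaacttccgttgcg
Rplp0: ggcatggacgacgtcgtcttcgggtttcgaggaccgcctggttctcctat
Rps2: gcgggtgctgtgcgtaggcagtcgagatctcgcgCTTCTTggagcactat
Rpl13: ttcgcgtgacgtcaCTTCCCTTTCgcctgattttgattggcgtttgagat
Rps19bp1: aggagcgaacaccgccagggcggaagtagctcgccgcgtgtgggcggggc
These stretches lie at chr17:33955646-33955695 on the minus strand for Rps18, chr10:128626487-128626536 on the minus strand for Rps26, chr10:23787190-23787239 on the minus strand for Rps12, chr7:28350659-28350708 on the plus strand for Rps16, chr14:18270967-18271016 on the minus strand for Rpl15, chr9:120571487-120571536 on the plus strand for Rpl14, chrX:37085203-37085252 on the minus strand for Rpl39, chrX:134585624-134585673 on the plus strand for Rpl36a, chr5:115559437-115559486 on the plus strand for Rplp0, chr17:24720033-24720082 on the plus strand for Rps2, chr8:123102320-123102369 on the plus strand for Rpl13 and chr15:80264287-80264336 on the minus strand for Rps19bp1. A run was found in Rps18, Rps26, Rps12, Rpl15, Rpl14, Rpl39, Rps2 and Rpl13 and not in Rps16, Rpl36a, Rplp0 or Rps19bp1, for the first start that RefSeq lists. The marked runs of Rpl39 and Rpl13 lie wholly before the annotated start, and so outside the annotated messenger RNA. In Rpl39 a later run, after the start, is not marked. RefSeq starts can lie some bases away from the start used in these cells.

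RefSeq promoter windows of 250 bases before to 50 bases after the start were at hand for 66 of the 86 genes and for 57 of the 77 standard ribosomal protein genes. A pyrimidine run of the kind above was present in 35 of these 57 (61.4%), against 29.4% of 27025 promoter windows of all genes. Runs that lie wholly before the start are included. The start base was a C in 20 of the 57 (35.1%), against 16.2% of all. On either strand, the ETS motif CCGGAAG occurred in 23 of 57 windows (40.4%), against 9.12% of all. The YY1 motif AAGATGGC occurred in 4 (7.02%, against 2.88%) and the E-box CACGTG, bound by MYC among others, in 5 (8.77%, against 7.24%). A match describes the letters only. The 35 genes with a run had a median log2 fold change of -0.37 between the groups and the 22 without one a median of -0.38. The 23 genes with the ETS motif had a median of -0.40 and the 34 without it a median of -0.37.

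Messenger RNA of the ribosomal protein genes made up, on average, a smaller part of the libraries labelled knockout than of wild type. In the libraries labelled knockout 1 to 4 these genes held 2.14%, 2.52%, 1.94% and 2.26% of all counts, against 2.27%, 2.90%, 3.01% and 2.72% in wild type 1 to 4. The means were 2.22 ± 0.239% and 2.73 ± 0.326% (SD, n = 4 each), a difference of -0.511 percentage points. Knockout-labelled library 2 lay above wild type 1, so the groups overlapped, and the highest 3 of the 8 shares were wild type. In RNA from many cells, fewer cells with a high level of these transcripts and less of them per cell cannot be told apart.

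Gene by gene, 84 of the 86 could be tested. The other 2 were the testis paralogs Rpl10l, which had 0 counts in every library, and Rpl39l, which stayed at or below 0.341 CPM. Of the 84, 79 had a log2 fold change below 0, against 49.6% of the 18884 genes tested. Their median was -0.37, a level 22.7% lower in the libraries labelled knockout, beside a median of 0.00 for all genes tested. The quartiles were -0.43 and -0.26, the range ran from -0.58 to 0.37, and the median SE was 0.14. None reached an adjusted p of 0.05 in edgeR's quasi-likelihood test (Benjamini-Hochberg over all genes), where 0% of the 18884 genes did and the smallest adjusted p was 0.391. At an unadjusted p under 0.05, 65 of the 84 (77.4%) were lower, against 7.11% of all genes tested, and 0 were higher, against 5.53%. DESeq2 put 0 of the ribosomal protein genes past an adjusted p of 0.05 and 57 lower at an unadjusted p under 0.05, against 7.46% of all genes. Limma-voom with quality weights put 0 past the adjusted threshold, 64 lower at the unadjusted one, against 8.18% of all genes, and 4 higher, against 11.7%. Of the 4179 genes averaging 50 CPM or more, whose median SE was 0.12, 625 were lower at that threshold and the median was -0.02.

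The count of 65 depended on single libraries. It was 39 without knockout-labelled library 1, against 3.36% of all genes lower in that fit, and 31 without knockout-labelled library 3, against 3.32%. It was 21 without wild type 2, against 2.46%, and 21 without wild type 3, against 3.67%. It lay between 53 and 71 when any of the other libraries was left out, against 5.73% to 7.46% of all genes. The median log2 fold change stayed between -0.46 and -0.30 in all 8 cases. The 95% interval of 81 of the 84 genes lay within a 2-fold difference either way, and that of 65 lay wholly below 0.

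**Figure D1:**
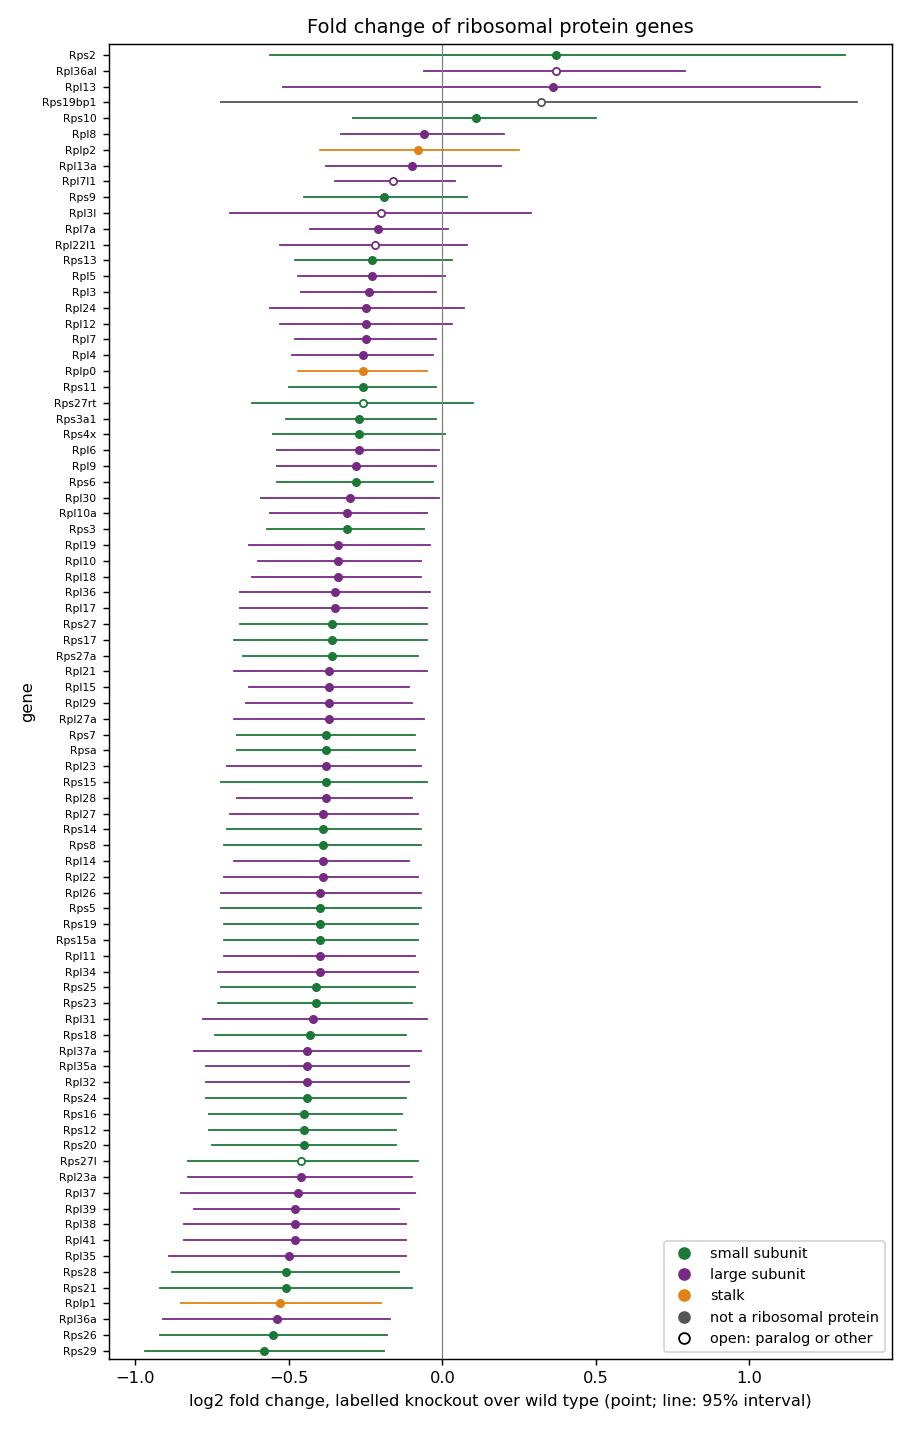
Log2 fold change with its 95% interval for all but 1 of the 84 tested genes, libraries labelled knockout over wild type, in order of fold change, with colours for small subunit, large subunit and stalk and open points for paralogs. Most points lie between -0.58 and 0, and Rps2, Rpl13 and Rps19bp1 stand apart above 0 with wide intervals.

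The genes varied between libraries almost as one. Taking each gene's log2(CPM + 1) less its mean over the 8 libraries, the median over the 84 genes was -0.25, 0.05, -0.38 and -0.13 in the libraries labelled knockout 1 to 4, and -0.10, 0.27, 0.38 and 0.18 in wild type 1 to 4. The corresponding medians over all genes tested lay between -0.01 and 0.02. Knockout-labelled library 3 was the lowest of the 8 for 70 genes, and wild type 3 the highest for 72. Knockout-labelled library 2 lay above wild type 1 for 81 genes. All 4 libraries labelled knockout lay below wild type 2, 3 and 4 for 68 genes, and knockout-labelled libraries 1, 3 and 4 lay below every wild type library for 50. Each of these counts leaves out a library that overlapped. Their share among all genes tested was not determined, so they do not show that the groups separate. Complete separation of the groups occurred for 1 gene, Rplp0, where 4.17% of all genes tested were lower in every library labelled knockout. The reverse held for 0 of the 84 and 2.62% of all genes tested. The spread of a gene around the common pattern was small, with a median SD of 0.074 on the log2 scale, and exceeded 0.25 for 7 genes.

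**Figure D2:**
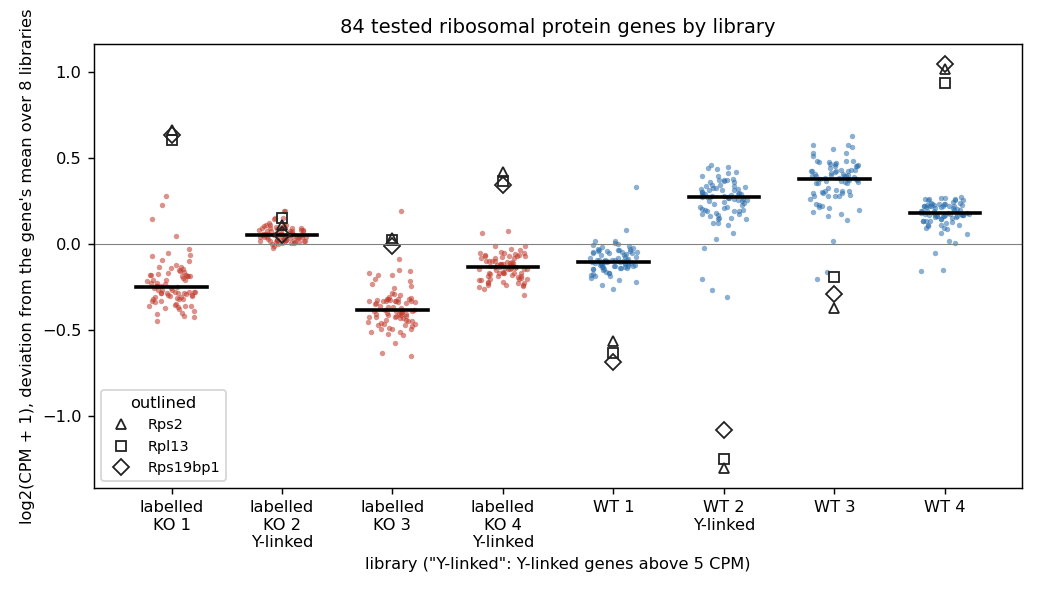
Deviation of log2(CPM + 1) from each gene's own mean in each library, with 1 point per gene and the 4 libraries labelled knockout left of the 4 wild type libraries. The medians run from -0.38 in knockout-labelled library 3 to 0.38 in wild type 3, and a few genes lie far from the rest in wild type 2 and 4.

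Of the 31 small subunit genes, 26 (83.9%) were lower at an unadjusted p under 0.05 and 0 were higher. Among all genes tested, 7.11% were lower and 5.53% higher. In this subunit 29 genes had a log2 fold change below 0, with a median of -0.39. Rps29, which encodes a small zinc-binding protein mutated in some Diamond-Blackfan families, had 99.3, 144, 89.3 and 111 CPM in the libraries labelled knockout and 134, 173, 206 and 149 CPM in wild type. Rps26, another gene of that disease, whose product sits where messenger RNA leaves the subunit, had 119.9, 171, 117 and 142 CPM against 154, 222, 238 and 191 CPM in wild type. In both genes knockout-labelled library 2 exceeded wild type 1 while the other 3 libraries labelled knockout lay below all wild type libraries. The log2 fold changes of Rps29 and Rps26 were -0.58 ± 0.18 and -0.55 ± 0.16 (SE, adjusted p = 0.391 for each, edgeR's quasi-likelihood test).

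Rps20 had 177, 215, 149 and 182 CPM in the libraries labelled knockout and 204, 252, 283 and 251 CPM in wild type, a log2 fold change of -0.45 ± 0.13. Rps12, whose product signals ribosomal protein imbalance in Drosophila cell competition, had 79.2, 96.0, 68.4 and 82.5 CPM against 90.7, 114, 127 and 114 CPM in wild type, a log2 fold change of -0.45 ± 0.14. For both genes the lowest value of all was that of knockout-labelled library 3 and the highest that of wild type 3. Rps18, which helps to bridge the subunits, had 279, 342, 246 and 288 CPM against 305, 420.3, 437 and 393 CPM in wild type, a log2 fold change of -0.43 ± 0.14. Rps16, whose tail reaches the transfer RNA bound to the subunit, averaged 206 ± 32.4 CPM in the libraries labelled knockout and 280.4 ± 40.1 CPM in wild type (SD, n = 4 each), a log2 fold change of -0.45 ± 0.14. The unadjusted p of these 6 small subunit genes ran from 0.00757 to 0.0111, the lowest of their subunit in edgeR's quasi-likelihood test, and the adjusted p was 0.391 for each.

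Other small subunit genes with known roles had similar values. Rps19, the most often mutated gene of Diamond-Blackfan anaemia, averaged 528 ± 71.6 CPM in the libraries labelled knockout and 695 ± 114 CPM in wild type, a log2 fold change of -0.40 ± 0.14. Rpsa, whose human counterpart causes congenital absence of the spleen when mutated, averaged 618 ± 97.3 and 806 ± 84.6 CPM, a log2 fold change of -0.38 ± 0.13. Rps27a, which encodes a ribosomal protein fused to ubiquitin, averaged 187 ± 26.5 CPM in the libraries labelled knockout and 240.2 ± 28.7 CPM in wild type, a log2 fold change of -0.36 ± 0.13. Rps6, the substrate of the S6 kinases downstream of mTOR, had 689, 809.8, 613 and 738 CPM in the libraries labelled knockout and 726, 898, 960.2 and 887 CPM in wild type, a log2 fold change of -0.28 ± 0.12. Each of these 4 was at an adjusted p of 0.391 in edgeR's quasi-likelihood test, and in each the groups overlapped.

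Of the 43 large subunit genes outside the stalk, 36 (83.7%) were lower at an unadjusted p under 0.05 and 0 were higher. Among all genes tested, 7.11% were lower and 5.53% higher. In this subunit 42 genes had a log2 fold change below 0, with a median of -0.37. Rpl36a, whose product touches the exit site for transfer RNA, had 39.0, 53.9, 31.8 and 45.1 CPM in the libraries labelled knockout and 53.7, 64.5, 70.3 and 59.1 CPM in wild type. Only knockout-labelled library 2 reached the wild type range, just above wild type 1. Its log2 fold change was -0.54 ± 0.17 (SE, adjusted p = 0.391, edgeR's quasi-likelihood test). Rpl39, which lines the exit tunnel, averaged 64.9 ± 12 CPM in the libraries labelled knockout and 90.3 ± 11.8 CPM in wild type, a log2 fold change of -0.48 ± 0.15. The same order of libraries recurred, with knockout-labelled library 3 lowest and wild type 3 highest in both genes.

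Rpl15, a Diamond-Blackfan gene, had 396, 484, 368 and 428 CPM in the libraries labelled knockout and 457, 566, 606 and 535 CPM in wild type, a log2 fold change of -0.37 ± 0.12. Rpl14 had 232, 267, 183 and 235 CPM against 256, 311, 324 and 313 CPM in wild type, a log2 fold change of -0.39 ± 0.13. Rpl5 and Rpl11 encode the proteins that, with the small ribosomal RNA of the large subunit, bind MDM2 and stabilise p53 when assembly fails. Rpl11 averaged 207 ± 25.3 CPM in the libraries labelled knockout and 273 ± 44.0 CPM in wild type, a log2 fold change of -0.40 ± 0.14 (adjusted p = 0.391, edgeR's quasi-likelihood test). Rpl5 averaged 282 ± 27.4 and 330.1 ± 32.9 CPM, a log2 fold change of -0.23 ± 0.11 that missed even the unadjusted threshold (unadjusted p = 0.0567, edgeR's quasi-likelihood test). Rpl10, which joins the subunit late in the cytoplasm, averaged 431 ± 42.8 CPM in the libraries labelled knockout and 544 ± 72.4 CPM in wild type, a log2 fold change of -0.34 ± 0.12. Rpl3 and Rpl4, long proteins that reach towards the catalytic centre and the tunnel, had log2 fold changes of -0.24 ± 0.10 and -0.26 ± 0.10.

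The stalk recruits the elongation factors. Rplp1, one of its tip proteins, had the smallest unadjusted p of all the genes (0.00468, adjusted p = 0.391, edgeR's quasi-likelihood test). It had 128, 163, 112 and 140.1 CPM in the libraries labelled knockout and 158, 209.5, 224 and 189.5 CPM in wild type, a log2 fold change of -0.53 ± 0.14. Its base, Rplp0, a gene often used to normalise PCR measurements, had 786, 816, 654 and 759 CPM in the libraries labelled knockout, all below the 817, 926, 942 and 922 CPM of wild type. The gap was narrow, with knockout-labelled library 2 just under wild type 1, and the log2 fold change was -0.26 ± 0.09 (adjusted p = 0.391). Rplp2, the partner of Rplp1 at the tip, had 117, 137, 102 and 115 CPM against 116, 96.5, 141 and 144 CPM in wild type, a log2 fold change of -0.08 ± 0.15 (95% interval -0.40 to 0.25, adjusted p = 0.836) that was 0.00 without wild type 4. Rplp2 was lowest in wild type 2, where Rplp1 was near its highest.

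A few genes did not follow the common pattern. Rps2, a small subunit protein at the entry of the messenger RNA channel, had 443, 302, 287 and 374 CPM in the libraries labelled knockout and 189, 113, 216 and 567 CPM in wild type. Rpl13, a large subunit gene, had 902, 656, 602 and 764 CPM against 381, 249, 518 and 1133 CPM in wild type. Rps19bp1 had 13.9, 8.91, 8.49 and 11.1 CPM against 4.95, 3.53, 6.81 and 18.7 CPM in wild type. All 3 were highest in wild type 4 and lowest in wild type 2, and knockout-labelled library 1 came second. Their highest value was 5.02, 4.55 and 5.31 times the lowest, and their SD around the common pattern was 0.867, 0.814 and 0.803 on the log2 scale, the most of all 84 genes. The log2 fold changes were 0.37 ± 0.42, 0.36 ± 0.39 and 0.32 ± 0.46 (adjusted p = 0.706, 0.699 and 0.782, edgeR's quasi-likelihood test). Single libraries moved these values both ways. For Rps2, Rpl13 and Rps19bp1, the log2 fold changes were 1.03, 0.93 and 1.06 without wild type 4. They were 0.14, 0.13 and 0.08 without wild type 2, 0.23, 0.21 and 0.13 without wild type 1, and 0.24, 0.23 and 0.15 without knockout-labelled library 1. With limma-voom, which weights libraries by quality, they were 0.76, 0.66 and 0.74, and with a term for Y-linked counts 0.65, 0.61 and 0.59.

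**Figure D3:**
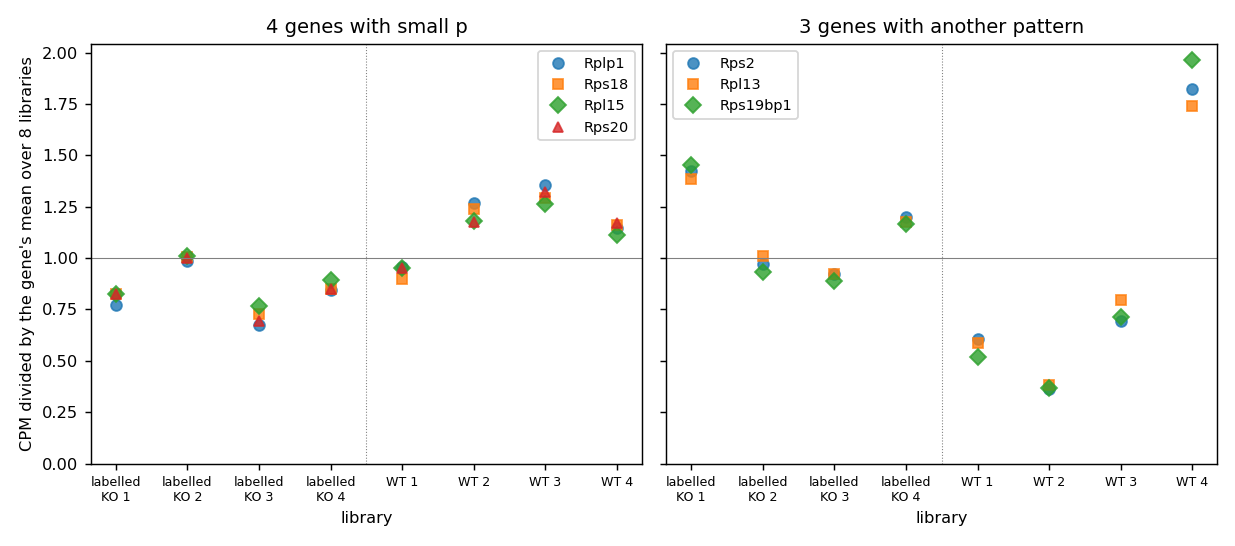
CPM in each library divided by the gene's mean over the 8 libraries, with 1 point per gene and library and the libraries labelled knockout on the left of each panel, for 4 genes of the common pattern (left panel) and 3 that departed from it (right panel). Rps2, Rpl13 and Rps19bp1 are highest in wild type 4 and lowest in wild type 2, and Rplp1, Rps18, Rpl15 and Rps20 are highest in wild type 3.

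The same order of the wild type libraries was seen in genes of the highest GC content. The 522 genes tested with more than 60% GC had median deviations of 0.27, 0.00, 0.13 and 0.08 in the libraries labelled knockout and -0.19, -0.37, -0.12 and 0.19 in wild type. Rps2, Rpl13 and Rps19bp1 themselves have 55.9%, 52.0% and 56.6% GC. With the GC trend of each library removed, their log2 fold changes were 0.30, 0.35 and 0.23. Among the ribosomal protein genes the median log2 fold change was -0.38 for the 19 genes above 55% GC and -0.37 for the 65 at or below it.

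Rpl36al, Rpl3l, Rps10 and Rplp2 were the other 4 genes with an SD above 0.25 around the common pattern, at 0.405, 0.356, 0.321 and 0.257. Rps10 was low throughout, at 4.93, 3.81, 3.39 and 4.11 CPM in the libraries labelled knockout and 3.94, 3.81, 3.95 and 3.39 CPM in wild type. Its log2 fold change was 0.11 ± 0.18, but -0.02 without knockout-labelled library 1 and -0.26 with the GC trend removed, so it has no stable direction. Of its exon bases 28.7% are shared with other genes, mainly the read-through gene RPS10-NUDT3. Rpl8, a protein close to the catalytic centre, came next with an SD of 0.229. It had 338, 373, 329 and 338 CPM in the libraries labelled knockout and 321, 304, 429.7 and 384 CPM in wild type, a log2 fold change of -0.06 ± 0.12 (95% interval -0.33 to 0.20) that was 0.04 without wild type 3.

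Among the paralogs, 1 of the 6 tested (16.7%) was lower at an unadjusted p under 0.05 and 0 were higher, with a median log2 fold change of -0.21. Among all genes tested, 7.11% were lower and 5.53% higher. The 1 lower paralog was Rps27l, a p53 target in human cells and a close copy of Rps27. It had 57.7, 82.7, 48.6 and 73.5 CPM in the libraries labelled knockout and 76.8, 96.5, 97.9 and 88.7 CPM in wild type, a log2 fold change of -0.46 ± 0.17 (adjusted p = 0.391, edgeR's quasi-likelihood test). Rps27 itself had a log2 fold change of -0.36 ± 0.14 and the retrogene Rps27rt one of -0.26 ± 0.16. Rpl36al, a copy of Rpl36a, was the gene with the highest fold change beside Rps2, at 3.24, 3.26, 3.39 and 3.05 CPM against 2.20, 2.19, 2.43 and 3.21 CPM in wild type. Its value in knockout-labelled library 4 lay below that of wild type 4, and the log2 fold change was 0.37 ± 0.19 (adjusted p = 0.432).

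Rpl22, whose loss in mice arrests alpha-beta T cell development, averaged 62.9 ± 9.11 CPM in the libraries labelled knockout and 82.7 ± 11.8 CPM in wild type, a log2 fold change of -0.39 ± 0.14. Its paralog Rpl22l1, which rises when Rpl22 is lost in mice, averaged 21.9 ± 3.15 and 25.5 ± 2.12 CPM, a log2 fold change of -0.22 ± 0.14. Rpl7 and its relative Rpl7l1 had log2 fold changes of -0.25 ± 0.10 and -0.16 ± 0.09. Rpl3l, which replaces Rpl3 in striated muscle, averaged 7.26 ± 1.55 CPM in the libraries labelled knockout and 8.34 ± 1.96 CPM in wild type, a log2 fold change of -0.20 ± 0.22. Differences between a gene and its paralog were not tested. Per exon length, as mean TPM over the 8 libraries, the level of the standard gene was 2.09 times that of the paralog for Rpl22, 3.55 times for Rps27, 3.67 times for Rpl7, 14.6 times for Rpl36a and 48.7 times for Rpl3.

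Levels per exon length differed widely although the ribosome holds its proteins in nearly equal numbers. TPM here are counts per exon base, scaled to the same sum in each library. Over the 77 standard genes the mean TPM of the 8 libraries had a median of 292 and ran from 3.64 for Rps10 to 2300 for Rps3a1, and 67 genes exceeded 100. Rps3a1, a small subunit protein near the messenger RNA exit, averaged 2169 ± 134 TPM in the libraries labelled knockout and 2432 ± 195 TPM in wild type. Rpl4 came next, with 1298 ± 72.3 TPM in the libraries labelled knockout and 1447 ± 103 TPM in wild type (SD, n = 4 each). At the other end, Rps10, Rpl24 and Rpl13a were under 30 TPM, and each shares at least 28.7% of its exon bases with other genes. Exon length is that of every annotated exon together, so long minor transcripts lower the TPM of a gene.

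**Figure D4:**
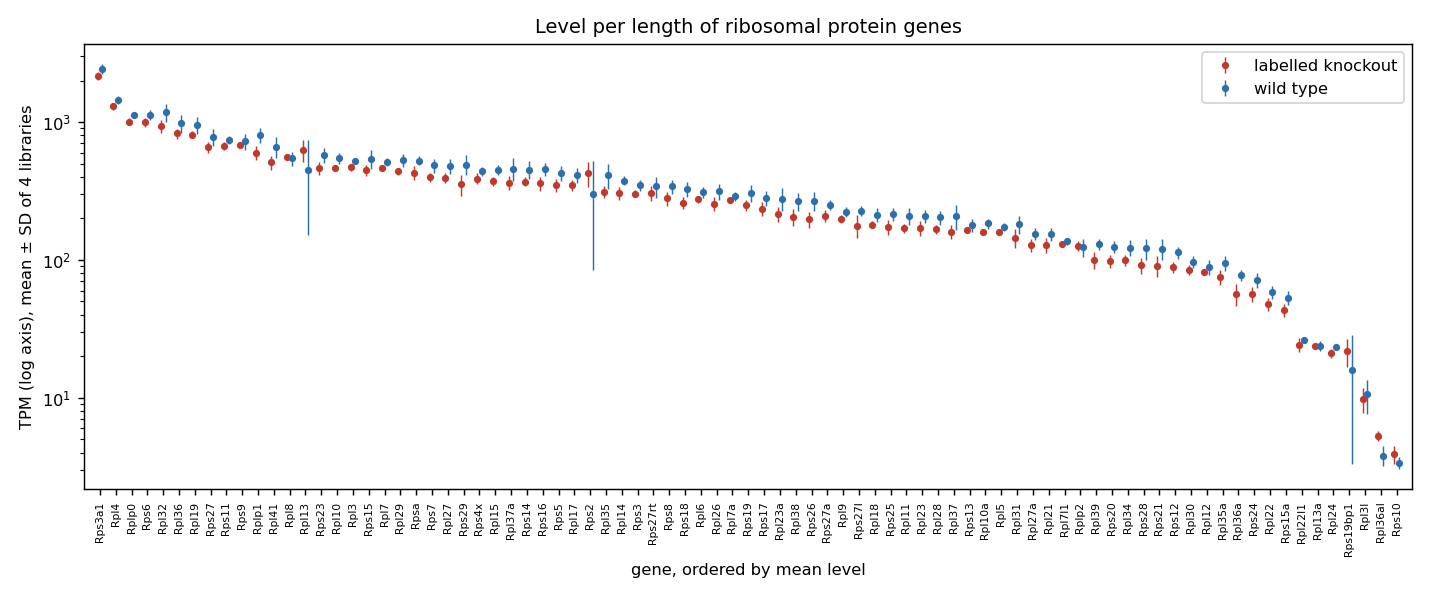
Mean TPM with its SD on a log axis for all but 1 of the tested genes in the libraries labelled knockout and in wild type. Levels run from 3.64 for Rps10 to 2300 for Rps3a1 as means of the 8 libraries, and the groups lie close together beside this range.

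Libraries also differed in Y-linked transcripts, which is a way in which the groups were not matched. Y-linked genes summed to 506 and 503 CPM in knockout-labelled libraries 2 and 4 and to 496 CPM in wild type 2, and to at most 2.73 CPM in the other 5. Wild type 2 also held 60 CPM of Xist, the transcript of the inactive X chromosome, where knockout-labelled libraries 2 and 4 held 0.348 and 1.12 CPM and the other 5 libraries 370.0 to 482 CPM. It thus carried both kinds of transcript, and it was the 1 wild type library with Y-linked counts. Among libraries with Y-linked counts, and again among those without, 71 of the 84 ribosomal protein genes (84.5%) were lower in every library labelled knockout than in every wild type library. The share among all genes tested was 14.6%. Of the 77 standard genes, 68 did so. The opposite held for 1 gene, Rpl36al, where 9.27% of all genes tested did so. Among the 5 libraries without Y-linked counts alone, where wild type 2 has no part, 71 of the 84 were lower in both libraries labelled knockout, against 21.4% of all genes tested. The split leaves 2 libraries labelled knockout against 1 wild type and 2 against 3, so it gives no test. It was made after the data were seen. It never sets knockout-labelled library 2 against wild type 1, where 81 of the 84 genes were higher in the knockout-labelled library. Its counts therefore cannot be set beside the 1 gene that separated over all 8 libraries.

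The omission that gave the most genes past the adjusted threshold, that of wild type 4, was also combined with a term for Y-linked counts. No other library was left out together with that term, so the adjusted p-values of this fit are those of a selected setting. In it 26 ribosomal protein genes were lower and 3 higher at an adjusted p under 0.05 in edgeR's quasi-likelihood test. In that fit 4.04% of 19506 genes were lower and 11.9% higher. Rplp1, Rps26 and Rpl36a had log2 fold changes of -0.59 ± 0.14, -0.64 ± 0.15 and -0.64 ± 0.15 there (adjusted p = 0.0195, 0.0215 and 0.0218, edgeR's quasi-likelihood test). The 3 higher genes were Rps2, Rpl13 and Rps19bp1, at 1.13 ± 0.20, 1.04 ± 0.21 and 1.15 ± 0.24. With the Y term alone, and all 8 libraries, 0 ribosomal protein genes passed and 71 were lower at an unadjusted p under 0.05, against 12.4% of all genes. Without wild type 4 and with no Y term, 0 passed, 56 were lower, against 7.41% of all genes, and 4 were higher, against 14.5%. In that last fit 363 of all genes passed the adjusted threshold.

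Ribosomal protein genes have many processed pseudogenes, and every alignment of a fragment was counted here, so reads of a gene and its copies are shared between them. Of 307 ribosomal protein pseudogenes, 298 carried the name of 1 of 60 of the 86 genes, with up to 24 for 1 gene, in Rps12 and Rpl31. Of the 206 pseudogenes tested, 182 had a log2 fold change below 0, 71 (34.5%) were lower at an unadjusted p under 0.05 and 0 were higher, with a median of -0.36. The background among all genes tested, here and for the subsets below, was 7.11% lower and 5.53% higher. The pseudogenes held 0.523 ± 0.0609% of all counts in the libraries labelled knockout and 0.635 ± 0.0604% in wild type (SD, n = 4 each). The 24 tested genes with no pseudogene of their name had a median log2 fold change of -0.29, 22 were below 0 and 15 were lower at an unadjusted p under 0.05. The 21 genes with at least 5 pseudogenes had a median of -0.35. Exon bases are shared with another gene in 39 of the 86, by 66.2% in Rpl35 and 62.3% in Rpl23a, in both on the opposite strand, which these counts do not separate. The 68 tested genes that share less than 10% had a median of -0.37, and 54 were lower at an unadjusted p under 0.05. Genes with less than 1300 exon bases (22 genes) had a median of -0.40 and longer ones (62 genes) one of -0.37.

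Genes that work with the ribosome were examined as lists, with the same 7.11% lower and 5.53% higher among all genes tested as background. Of the ribosome components outside the naming rule, Fau had 243, 311, 240.0 and 263 CPM in the libraries labelled knockout and 261, 390.4, 404 and 317 CPM in wild type, a log2 fold change of -0.37 ± 0.15. Rack1, a scaffold on the small subunit, had one of -0.23 ± 0.11. Among 18 translation factors and other TOP messenger RNAs, 6 were lower and 1 higher at an unadjusted p under 0.05, with a median of -0.18. Eef1a1, which brings transfer RNA to the ribosome, had 3107, 3326, 2915 and 3194 CPM in the libraries labelled knockout, all below the 3353, 3632, 3648 and 3619 CPM of wild type. Its log2 fold change was -0.18 ± 0.07 (adjusted p = 0.391, edgeR's quasi-likelihood test). Eif3l, a subunit of initiation factor 3, also had groups that did not overlap, with a log2 fold change of -0.21 ± 0.08. The 1 higher gene was Pabpc1, the poly(A) binding protein, at 0.29 ± 0.13.

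Among 34 ribosome assembly factors 7 were lower and 1 higher at that threshold, with a median of -0.12. Rpf2, which loads the 5S particle, had 31.2, 31.6, 31.0 and 35.1 CPM in the libraries labelled knockout and 37.6, 43.3, 40.7 and 41.7 CPM in wild type. Npm1, the nucleolar chaperone, had 245, 292, 219.5 and 279 CPM against 314, 315, 334 and 348 CPM in wild type. In both genes every library labelled knockout lay below every wild type library, and both had a log2 fold change of -0.34 ± 0.10 (adjusted p = 0.391, edgeR's quasi-likelihood test). The 1 higher gene was Bop1, at 0.55 ± 0.22. The 15 genes of the RNA polymerase I machinery, which makes ribosomal RNA, had 0 lower and 0 higher with a median of -0.02. Its factor Ubtf had a log2 fold change of 0.48 ± 0.25 and, like Rps2, was lowest in wild type 2. Its highest values were in knockout-labelled library 1 and wild type 4. The 5 tested chaperones and importers of ribosomal proteins had 0 lower and 0 higher with a median of 0.01. Among these, Pdcd2l, related to the chaperone of the Rps2 product, had 58.5, 34.1, 47.3 and 43.7 CPM in the libraries labelled knockout and 23.1, 15.2, 24.3 and 50.2 CPM in wild type, a log2 fold change of 0.70 ± 0.33.

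Of 7 ribosome rescue and quality control genes 1 was lower, with a median of 0.04. It was the recycling factor Abce1, at -0.32 ± 0.13. Of 10 regulators of TOP translation and MYC partners 1 was lower, with a median of 0.03. It was Max, the partner of MYC, at -0.59 ± 0.25. The mitochondrial ribosome, built from a separate set of proteins, gave 14 lower and 4 higher of 77 genes tested, with 48 below 0 and a median of -0.11. Mrpl42 had 51.4, 66.6, 44.2 and 63.3 CPM in the libraries labelled knockout, all below the 70.5, 82.3, 80.4 and 75.2 CPM of wild type, a log2 fold change of -0.45 ± 0.14 (adjusted p = 0.391, edgeR's quasi-likelihood test). That was the lowest fold change of this list, and the highest was 0.91. The groups separated completely for 3 of the 77 genes downwards and 2 upwards, against 4.17% and 2.62% of all genes tested. No difference between the lists was tested.

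**Figure D5:**
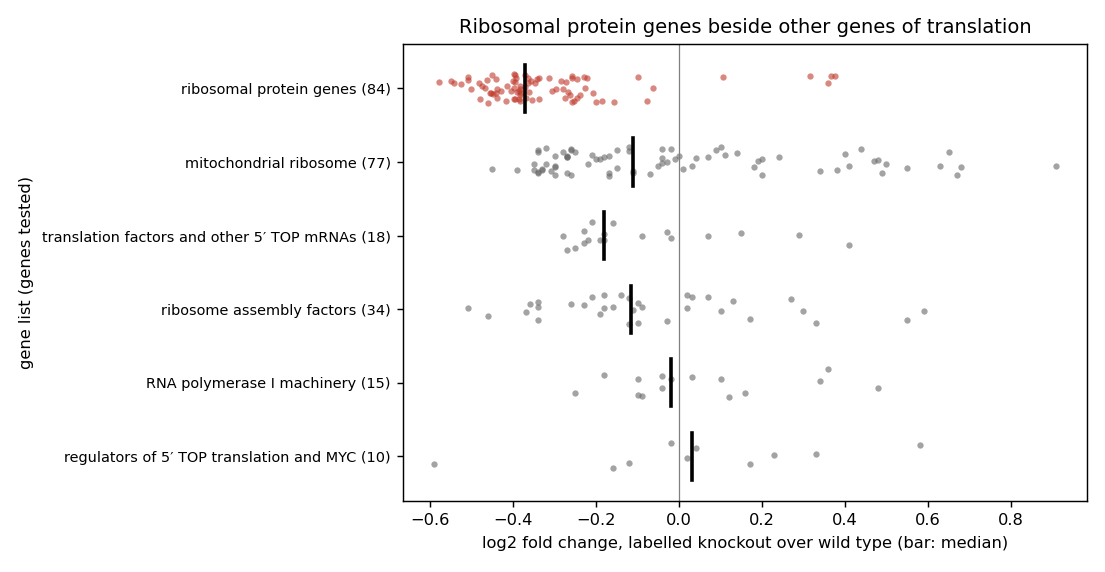
Log2 fold change of each tested gene, libraries labelled knockout over wild type, for the ribosomal protein genes and 5 comparison lists, with the median of each marked by a bar. The ribosomal protein genes have a median of -0.37, the translation factors -0.18, the assembly factors -0.12 and the mitochondrial ribosome -0.11.

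Markers of other bone marrow cells differed between the libraries too. The 11 erythroid markers summed to 316, 1850, 922 and 2334 CPM in the libraries labelled knockout, all below the 3233, 2968, 3978 and 8730 CPM of wild type. Of the 10 tested, 5 were lower and 0 higher at an unadjusted p under 0.05, and Hba-a1 and Alas2 had log2 fold changes of -1.81 ± 0.57 and -1.59 ± 0.44. The background among all genes tested, here and for the markers below, was 7.11% lower and 5.53% higher. Knockout-labelled libraries 1 and 3 were lowest both in erythroid markers and in ribosomal protein genes, while wild type 4 was highest in erythroid markers and wild type 3 in ribosomal protein genes. Natural killer markers summed to 18.5 ± 10.1 CPM in the libraries labelled knockout and 34.9 ± 5.46 CPM in wild type, with 2 of 8 lower and 0 higher. Neutrophil markers summed to 262 ± 158 and 349 ± 136 CPM, with 0 of 9 past that threshold, and monocyte and macrophage markers to 225 ± 56.4 and 268 ± 45.2 CPM, with 1 of 7 lower. T cell markers summed to 28.9 ± 5.38 CPM in the libraries labelled knockout and 32.3 ± 3.95 CPM in wild type, with 0 of 5 past it (SD, n = 4 each). Among the pro-B and B lineage markers 2 of 13 were lower and 1 higher, with Ebf1 at 0.40 ± 0.13 and Igll1 at -0.91 ± 0.40. The part of these cells in the ribosomal protein values was not tested.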

How the data were processed

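RNA of 8 samples labelled as mouse pro-B cells was measured. Per the labels' protocols, it was isolated with Trizol and made into libraries with a SMARTER kit. The deposited table holds whole fragment counts per gene, which the authors obtained from read pairs over GENCODE M25 exons with featureCounts 2.0.1, counting multi-mapping fragments at every alignment and with no strand option, per the file headers. Per the submitters' processing notes, STAR 2.7.7a, GATK 4.1.9.0 and the mm10 build were used. The deposited exon length of each gene (unit: other) served for TPM. Names came from GENCODE M21 on the same build, for 55227 identifiers, with 260 unnamed.

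Genes passing filterByExpr (18884) were scaled by TMM and tested, two-sided, with edgeR 4.0.16 (glmQLFit, robust, and glmQLFTest) in R 4.3.3. Genotype was the only term, and p-values had Benjamini-Hochberg adjustment over all 18884 genes at 0.05. The common biological coefficient of variation was 0.308. Fold changes are libraries labelled knockout over wild type. SEs of log2 fold changes and their 95% intervals were derived from the F statistic of that test. The method was also run on simulated counts with less spread between libraries than these data, so that run does not measure its error here. Library totals ran from 43974037 to 57988772 counts. Replicates were compared for copies, and the closest pair still had a chi-square of 29.5 per degree of freedom.

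The ribosomal protein genes and the comparison lists were chosen with earlier results of these data known, so no test was made over a list. Genes named are those with the 6 smallest unadjusted p-values per subunit, the 4 highest fold changes at a mean of 5 CPM or more, the 3 highest and 3 lowest TPM, the stalk, paralog pairs and genes of known role, and of each list those past the test or the 2 smallest p-values. Rpl13a, Rpl24, Rpl35, Rpl23a, Rps27rt, Pabpc1 and Bop1 were added after their values were seen. Results of 2 genes are not reported here. Alternatives were DESeq2 1.42.0, limma 3.58.1 voom, other scalings and filters, a replicate block, a Y-linked term, trends with GC content and exon length removed, and leaving out each library. Leaving out wild type 4 was also combined with the Y-linked term, the only such combination fitted. Subsets by pseudogenes and shared exons, and comparison within libraries with or without Y-linked counts, were chosen after seeing the data.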

Additional observations from a re-analysis of the deposited data

Results flagged for a closer look

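In groups of 4 libraries, the gap between the highest or lowest library and its neighbour was divided by the range of the group. Of 138 groups tested over the genes named, 5 passed Dixon's 95% critical value, and chance flags about 1 in 20 groups. Rplp0 in wild type had a gap of 0.846 of the range, with wild type 1 at 817 CPM below the other libraries at 922 to 942 CPM. Eef1a1 in wild type had a gap of 0.902, again with wild type 1 the low library. Eif3l in the libraries labelled knockout had a gap of 0.832, with knockout-labelled library 2 the high one. Rpf2 in the libraries labelled knockout had a gap of 0.859, with knockout-labelled library 4 the high one at 35.1 CPM. Abce1 in wild type had a gap of 0.84, with wild type 4 the low library.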

How the results depend on the processing

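Over 19 refits, 64 of the 68 genes named kept the sign of their fold change, and the median log2 fold change of the ribosomal protein genes stayed between -0.46 and -0.29, subsets included. The genes that changed sign were Il2ra (0.01 without wild type 2, range -0.27 to 0.01 when each library was left out), Rpl8 (0.04 without wild type 3, range -0.11 to 0.04), Rps10 (-0.26 with the GC trend removed, range -0.02 to 0.18) and Rplp2 (0.0 without wild type 4, range -0.15 to 0.0, and 0.01 with a Y-linked term as well). Their causes were not tested. Of all genes, 4 passed the adjusted threshold in DESeq2, 0 to 363 when each library was left out (363 without wild type 4), and 3112 without wild type 4 and with a Y-linked term. Ribosomal protein genes past it numbered 0 in every alternative but the last, a selected combination, which gave 29. Those higher at an unadjusted p under 0.05 numbered 4 with limma-voom, 0 to 4 when each library was left out, and 4 without wild type 4 and with a Y-linked term. Those lower numbered 21 to 71 when each library was left out, and 15 of the 24 with no pseudogene of their name. The difference in the share of counts stayed between -0.663 and -0.417 percentage points. With upper quartile scaling the median of all genes was -0.09 and 70 ribosomal protein genes were lower (against 10.2% of all genes). Same-numbered libraries of both groups correlated at 0.098, 0.321, 0.196 and -0.107 in their deviations, and since not all were above 0.1 the samples were treated as sharing only a number. Libraries 2 and 3 of both groups correlated best with their own number, and libraries 1 and 4 did not. With a replicate block the median was -0.37, 60 ribosomal protein genes were lower at an unadjusted p under 0.05 (against 7.21% of all genes) and 0 passed the adjusted threshold. Rps2, Rpl13 and Rps19bp1 then had log2 fold changes of 0.63, 0.58 and 0.60. The 4 libraries a group and a median SE of 0.14 limit what could be called.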
